A study of Mus musculus with 6 samples.

Results

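Egr1, Egr2, Egr3, Nr4a1, Nr4a2, Nr4a3, Ier2, Ier3, Ier5 and Btg2 are immediate early genes, and their expression was compared between CD27 high MODP and CD27 low MOP cells of mouse bone marrow. The 10 genes were taken by symbol from a read-count table of 22271 genes, and all 10 were among the 12850 genes with enough counts to be tested. The study sorted both cell populations by flow cytometry from C57BL/6JRj mice, all labelled WT, and sequenced total RNA from 3 libraries of each. The series' title places MOP as a progenitor of macrophages and osteoclasts downstream of MODP, which can also give rise to dendritic cells. No treatment, age or pooling of animals is given in the sources used here, and nothing says whether separate animals lay behind libraries of 1 group. The p-values here therefore weigh the group difference only against the spread of these libraries, which may be technical.

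Immediate early genes are transcribed within minutes of a signal, without the need for new protein, when signal-activated kinases act on transcription factors that already sit at their promoters, among them SRF with its ELK partners and CREB. Their transcripts are unstable, so their level falls again soon after the signal ends. In the myeloid lineage Egr1 and Egr2 are known as zinc finger factors of macrophage development and the Nr4a genes as orphan nuclear receptors of monocytes, while handling and dissociation of cells can also induce the whole group.

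The promoter sequences below are shown because they hold motifs of the factors named above in the 5 genes where such a motif was found. RefSeq start windows on GRCm38.p6 were matched for 7 of the 10 genes, namely Egr2, Nr4a1, Nr4a2, Nr4a3, Ier3, Ier5 and Btg2. The windows were searched on both strands over the 250 bases before the start for TGACG, the core of the cAMP response element (CRE) bound by CREB, for the full CRE TGACGTCA, which holds that core on each strand, and for the CArG box bound by SRF. Capitals mark the matches (CGTCA is TGACG on the opposite strand), and each stretch is read in the direction of transcription.
Egr2, chr10:67537795-67537820, plus strand: gtCCATATATGGgcagcgaCGTCAcg
Nr4a1, chr15:101266603-101266820, plus strand: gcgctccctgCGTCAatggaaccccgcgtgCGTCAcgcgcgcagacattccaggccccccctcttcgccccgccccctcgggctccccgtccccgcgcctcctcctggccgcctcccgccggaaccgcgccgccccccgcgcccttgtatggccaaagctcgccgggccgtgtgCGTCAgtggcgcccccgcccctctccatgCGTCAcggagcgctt
Nr4a2, chr2:57124100-57124213, minus strand: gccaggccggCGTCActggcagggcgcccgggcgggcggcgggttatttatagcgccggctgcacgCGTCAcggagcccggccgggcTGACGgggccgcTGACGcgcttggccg
Nr4a3, chr4:48045064-48045172, plus strand: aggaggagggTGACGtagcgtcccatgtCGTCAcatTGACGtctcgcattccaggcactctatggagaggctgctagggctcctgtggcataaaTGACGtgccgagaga
Btg2, chr1:134079304-134079331, minus strand: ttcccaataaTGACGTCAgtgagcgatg

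The core TGACG was found in 5 of the 7 genes with a window, against 17.7% of all 32817 promoter windows of the same length. Nr4a1, Nr4a2 and Nr4a3 each held 4 copies, and 0.137% of all windows held 4 or more. The Egr2 stretch carries a CArG box a few bases from a CRE core, and a CArG box was present in 1.47% of windows. The Btg2 stretch carries the full CRE, which was present in 1.55% of windows. Egr2 had 5 annotated start windows and therefore more sequence searched than the other genes, and 20 bases of the Nr4a3 stretch are annotated as exon in GENCODE M21. None of these 3 motifs was found in the windows of Ier3 and Ier5. The windows were also searched for the NBRE motif, the AP-1 site and the EGR sites GCGTGGGCG and GCGGGGGCG, which the capitals do not mark. Of those only GCGGGGGCG matched, in Nr4a1 alone. It lay within the printed stretch on the opposite strand, 60 to 52 bases before the start, and 2.57% of all windows held it. A match describes letters in a window and is not evidence that a factor binds there.

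Library totals ran from 10701425 to 15892640 counts. Levels are given as counts per 1000000 (CPM) scaled with TMM factors of 0.983 to 1.03. Cd27, the gene of the sorted surface receptor, lay at 35.4 to 38.9 CPM in MODP and 3.52 to 4.57 in MOP, and Csf1r, the receptor for macrophage colony-stimulating factor, was at 263 to 564 CPM in all 6 libraries. Libraries with the same replicate number varied together across genes, so replicates 1, 2 and 3 could also be read as 3 pairs of 1 MODP and 1 MOP library. Replicate 2 stood apart by markers of other cells: the summed level of 8 late neutrophil genes was 16697 CPM in MODP replicate 2 and 11642 in MOP replicate 2, against 2161 to 4965 in the other 4 libraries. Of 7 stromal and endothelial genes, the collagen genes Col1a1 and Col1a2 were at 1727 and 1355 CPM in MODP replicate 2. Elsewhere they were at 0.493 to 192 and 0.904 to 175 CPM, highest in MOP replicate 2. Cxcl12 and Pecam1 were not raised in MODP replicate 2 (1.22 and 132 CPM), and Lepr was at 0. In MOP replicate 2, Cxcl12 (29.6 CPM), Cdh5 (3.78) and Lepr (1.92) were at their highest of the 6 libraries, while Pecam1 (134) and Emcn (1.02) were not. In bulk samples such as these, fewer cells of a type and less RNA per cell cannot be told apart.

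Across the 10 genes, Egr2 and Egr3 were lower in MOP, Ier2, Ier5 and Btg2 were modestly higher, and no difference passed the test for Egr1, Ier3 and the Nr4a genes; of these calls only that of Egr2 did not require pairing of the replicates. With group as the sole factor, the quasi-likelihood test of edgeR, adjusted by Benjamini-Hochberg over all 12850 genes, called 0 of the 10 genes higher in MOP, where 16.3% of all tested genes were called higher, and 1 lower, Egr2, where 14.9% were. At an unadjusted p under 0.05 in the same edgeR fit the counts were again 0 higher and 1 lower. Of all 12850 tested genes, 2729 were higher and 2722 lower at that threshold. DESeq2 also called 0 higher and 1 lower, for which no share of all genes is given here. With the replicate pair as a block, 3 of the 10 genes were called higher (21.2% of all tested genes) and 2 lower (19.8%). The median log2 fold change of the 10 genes was 0.06 without the block and 0.07 with it, against -0.01 over all tested genes without it.

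Counted without a test, the MOP library exceeded its MODP partner in all 3 pairs for 5 of the 10 genes (Nr4a2, Ier2, Ier3, Ier5 and Btg2), against 32.6% of all tested genes. It lay below its partner in all 3 pairs for 3 genes (Egr2, Egr3 and Nr4a3), against 33.4%. For 0 of the 10 genes did all 3 MOP libraries lie above all 3 MODP libraries, which held for 23.8% of tested genes. The reverse, all MOP libraries below all MODP libraries, held for 1 gene, Egr2, and likewise for 23.8% of tested genes. These counts over 10 genes are descriptions and were not tested against the shares beside them.

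**Figure D1:**
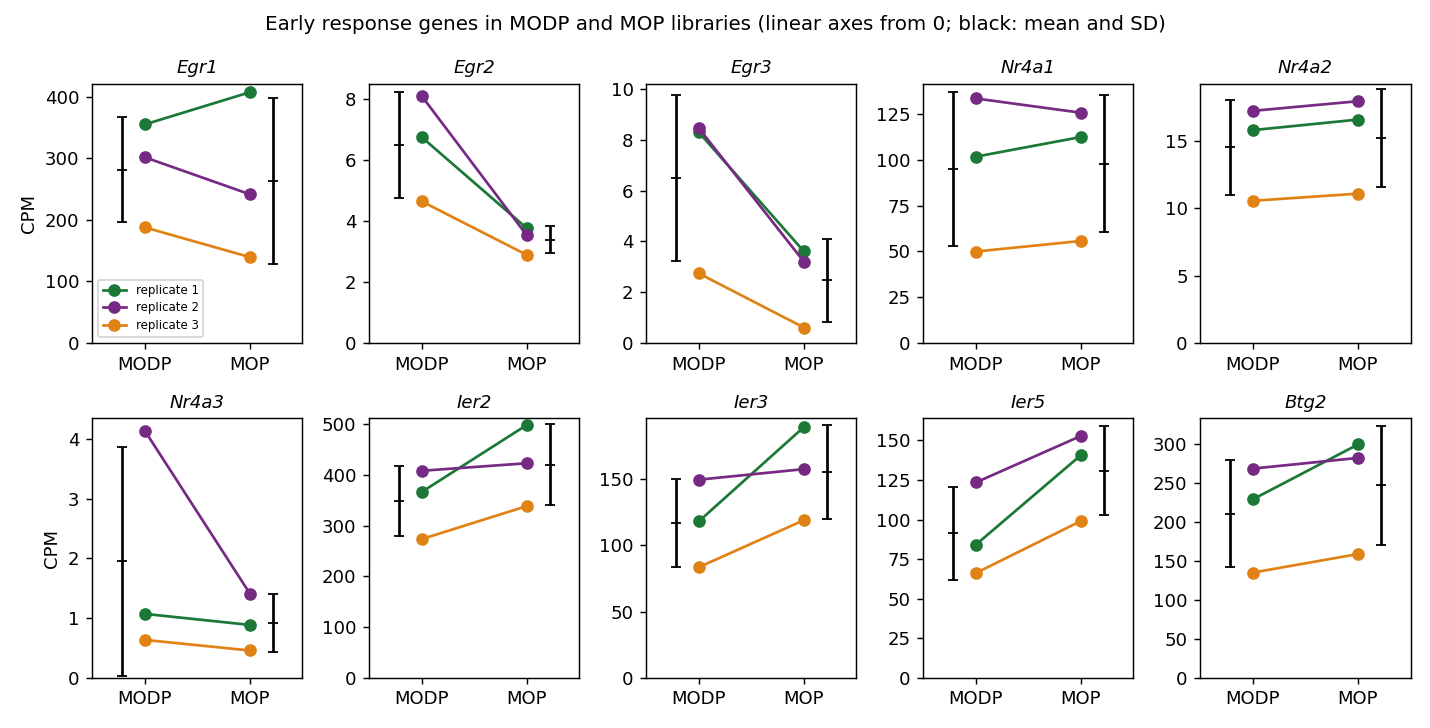
Level in CPM (vertical axes, linear from 0) of each gene in the 3 MODP and 3 MOP libraries, with lines joining libraries of the same replicate number and the mean and SD of each group in black. Replicate 3 is the lowest point of both groups in every panel, and the groups are separate only for Egr2.

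The Egr genes encode zinc finger transcription factors that bind GC-rich sites. Egr1 (ENSMUSG00000038418), the main early sensor of mitogen signals in the family, was at 355, 302 and 188 CPM in MODP replicates 1, 2 and 3 and at 407, 241 and 139 CPM in MOP. The groups overlapped widely, and MOP was the higher of the pair in replicate 1 and the lower in replicates 2 and 3. On the log2 scale the fold change was -0.10 ± 0.49 (SE, n = 3 libraries a group, edgeR adjusted p = 0.91), and -0.18 ± 0.15 with the block (adjusted p = 0.43).

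Egr2 (ENSMUSG00000037868), also known as Krox20, was at 6.74, 8.09 and 4.64 CPM in MODP and 3.76, 3.52 and 2.88 CPM in MOP, from 66 to 86 and 38 to 55 counts. Every MOP library was below every MODP library. Egr2 fell 1.90-fold in MOP, with a log2 fold change of -0.93 ± 0.24 (SE, n = 3 a group, edgeR adjusted p = 0.021, and 0.0058 with the block). The unpaired call was lost when MODP replicate 1 (adjusted p = 0.070), MOP replicate 1 (0.054), MOP replicate 2 (0.057), MOP replicate 3 (0.076) or both replicate 2 libraries (0.066) were left out, while the paired call held without any 1 of the 3 pairs (0.011 to 0.049).

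Egr3 (ENSMUSG00000033730), a direct relative of Egr2 known from lymphocyte and muscle spindle development, was at 8.30, 8.47 and 2.74 CPM in MODP and 3.61, 3.20 and 0.607 CPM in MOP. MOP replicate 3 held 8 counts, for which the exact 95% Poisson interval, which covers counting error only, is 0.262 to 1.20 CPM. MODP replicate 3 lay below MOP replicates 1 and 2, so the groups overlapped, but within pairs the MOP level was 0.434, 0.378 and 0.221 of the MODP level. On the log2 scale MOP differed by -1.37 ± 0.70 (SE, n = 3 a group, edgeR adjusted p = 0.20). With the block it was -1.45 ± 0.23 (adjusted p = 0.0015), a 2.74-fold fall, and that call held without any 1 of the 3 pairs (0.00068 to 0.014).

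Per length of exon, Egr1 was by far the most abundant of the family, with 93.1% to 97.9% of the summed Egr1 to Egr4 level in each library. The Egr3 level per length was 2.38%, 2.86% and 1.49% of the Egr1 level in MODP replicates 1, 2 and 3 and 0.902%, 1.35% and 0.443% in MOP. All MOP ratios were below all MODP ratios, whereas the ratios of Egr2 to Egr1 overlapped, at 2.51% to 3.54% in MODP and 1.22% to 2.73% in MOP. These ratios were computed after the levels had been seen and were not tested.

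The Nr4a genes encode nuclear receptors that act without a known natural ligand. Nr4a1 (ENSMUSG00000023034), or Nur77, was at 102, 133 and 49.9 CPM in MODP and 112, 126 and 55.7 CPM in MOP. Nr4a2 (ENSMUSG00000026826), or Nurr1, was at 15.8, 17.2 and 10.5 CPM in MODP and 16.6, 17.9 and 11.1 CPM in MOP. For both genes replicate 2 was highest and replicate 3 lowest in each group, and the groups covered nearly the same range.

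The log2 fold change of Nr4a1 was 0.05 ± 0.51 (SE, edgeR adjusted p = 0.96), and 0.07 ± 0.06 with the block (adjusted p = 0.42). Upper-quartile scaling turned the sign of the unpaired value, to -0.0053. For Nr4a2 the log2 fold change was 0.07 ± 0.24 (adjusted p = 0.85), and 0.07 ± 0.10 with the block (adjusted p = 0.62). Its 3 pair ratios of MOP to MODP were 1.05, 1.04 and 1.05. A missed threshold does not show that the levels were the same, and differences larger than the standard error, in either direction, remain possible.

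Nr4a3 (ENSMUSG00000028341), or Nor1, was at 1.07, 4.14 and 0.633 CPM in MODP and 0.884, 1.41 and 0.455 CPM in MOP, from 6 to 44 counts a library. MODP replicate 2 stood above the rest, and the groups overlapped. The log2 ratio of MOP to MODP was -1.01 ± 0.77 (SE, edgeR adjusted p = 0.37), and -0.96 ± 0.37 with the block (adjusted p = 0.070). Without MODP replicate 2 the unpaired value was 0.15, of opposite sign. Within the family, Nr4a1 made up 84.0% to 88.5% of the level per length and Nr4a2 9.87% to 15.3%.

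Ier2, Ier3 and Ier5 are early response genes named for their rapid induction and are not one sequence family in full: Ier2 and Ier5 are relatives, and Ier3 (also called IEX-1) is known as a regulator of apoptosis. Ier2 (ENSMUSG00000053560) was at 366, 408 and 273 CPM in MODP and 498, 423 and 338 CPM in MOP. The groups overlapped, and MOP was higher in each pair, by 1.36, 1.04 and 1.24 times. On the log2 scale MOP differed by 0.27 ± 0.20 (SE, n = 3 a group, edgeR adjusted p = 0.38), and 0.27 ± 0.07 with the block (adjusted p = 0.027). The paired call was lost without replicate 1 (adjusted p = 0.16) or replicate 3 (0.15).

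Ier5 (ENSMUSG00000056708), known to modulate the heat shock factor HSF1, was at 84.0, 123 and 66.1 CPM in MODP and 141, 153 and 99.1 CPM in MOP. Only MODP replicate 2 and MOP replicate 3 crossed the line between the groups, and the pair ratios were 1.67, 1.24 and 1.50. The log2 ratio of MOP to MODP was 0.53 ± 0.29 (SE, edgeR adjusted p = 0.25). With the block Ier5 rose 1.46-fold, with a log2 fold change of 0.54 ± 0.08 (adjusted p = 0.0025), and the call held without any 1 of the 3 pairs (1.8e-07 to 0.028). A fit without a pair holds few libraries and leans on variance shared across genes. The smallest of these values is thus no firmer than that with all pairs.

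Ier3 (ENSMUSG00000003541) was at 118, 150 and 83.5 CPM in MODP and 189, 158 and 119 CPM in MOP. MOP was higher in each pair, by 1.60, 1.05 and 1.43 times, with groups that overlapped. The log2 ratio of MOP to MODP was 0.41 ± 0.28 (SE, edgeR adjusted p = 0.34), and 0.42 ± 0.13 with the block (adjusted p = 0.078). DESeq2 with the same block called it (adjusted p = 0.0039), as did edgeR with the block when replicate 2 was left out (2.9e-07). That last fit likewise holds few libraries, so its small value is no firmer than the edgeR value with all pairs.

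Btg2 (ENSMUSG00000020423), an antiproliferative gene of the BTG and TOB family that recruits the deadenylase that shortens poly(A) tails, was at 229, 268 and 135 CPM in MODP and 299, 282 and 159 CPM in MOP. The pair ratios were 1.31, 1.05 and 1.18, and the groups overlapped. On the log2 scale MOP differed by 0.23 ± 0.38 (SE, edgeR adjusted p = 0.70), and 0.23 ± 0.06 with the block (adjusted p = 0.018). The paired call was lost without replicate 1 (adjusted p = 0.17) or replicate 3 (0.10). In Ier2, Ier3, Ier5 and Btg2 alike, the smallest of the 3 pair ratios was that of replicate 2. The same held for Egr2, Nr4a1, Nr4a2 and Nr4a3, while for Egr1 and Egr3 it was that of replicate 3. No share of all genes is given here for this trait. Replicate 2 was the pair with the high neutrophil marker sums, whose part in the ratios was not tested.

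**Figure D2:**
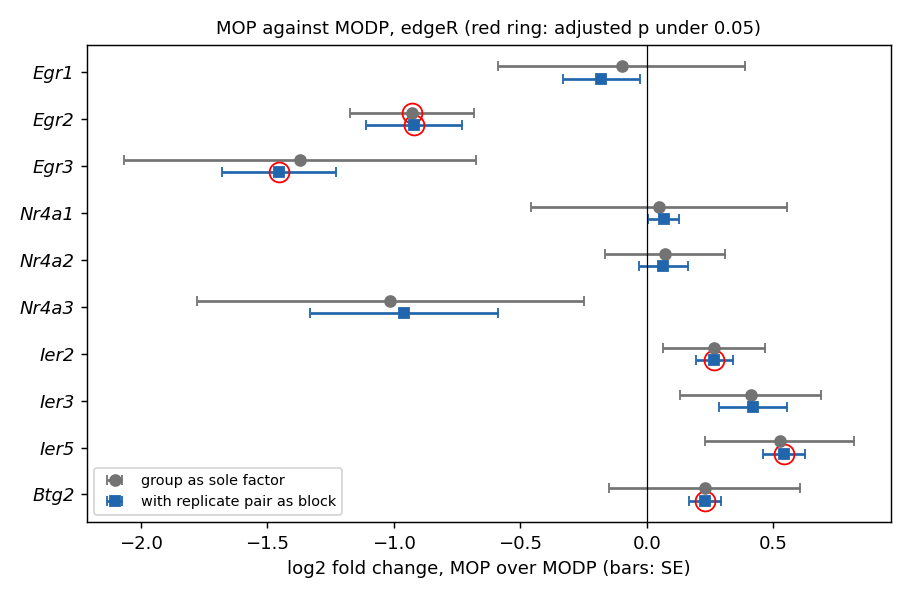
Log2 fold change of MOP over MODP (horizontal axis) with its SE for each gene, from edgeR with group as the sole factor (grey circles) and with the replicate pair as a block (blue squares), with red rings at an adjusted p under 0.05. The estimates hardly move between the fits while the SE shrinks, from 0.70 to 0.23 for Egr3 and from 0.38 to 0.06 for Btg2.

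Some markers of other cells moved with the groups, and their part in the differences above was not tested. By edgeR without the block, 7 of the 8 listed markers of basophils and mast cells were higher in MOP, and the list's sum was 563 to 1164 CPM in MODP and 3363 to 5290 in MOP. With the block 2 of the 8 were called, Cpa3 (adjusted p = 0.046) and Il4 (0.0013), although the 7 were higher in MOP in all 3 pairs. Of 7 T and NK cell genes tested, 5 were lower in MOP (6 with the block), and the list's sum was 218 to 269 CPM in MODP and 70.5 to 106 in MOP. Most of that sum was Nkg7 alone, at 204 to 240 CPM in MODP and 65.0 to 99.3 in MOP. Every other gene of the list was at or below 6.11 CPM in each library. Of 6 erythroid genes, 4 were higher in MOP in either fit, with sums of 95.7 to 363 and 277 to 477 CPM. Over all tested genes the shares called were 16.3% higher and 14.9% lower, and 21.2% and 19.8% with the block. Of all the marker genes in these 3 lists, 0 were at 0 in all libraries. Other marker lists also held calls. Of 6 mature macrophage genes, 1 was higher, and 3 with the block. Of 8 B cell genes, 0 were called without the block and 3 were lower with it. Of 3 megakaryocyte genes tested, 1 was higher without the block and 1 lower with it. Of 5 dendritic cell genes, 1 was higher and 1 lower, and 2 and 1 with the block. Of 6 stromal and endothelial genes tested, 0 were called without the block and 1 was higher with it.

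Levels between genes were compared as CPM per kilobase of merged exon (RPKM). In order of the mean over all 6 libraries, Ier2 led with 253, followed by Ier3 with 120, Btg2 with 83.4, Egr1 with 60.7, Ier5 with 33.9, Nr4a1 with 27.5, Nr4a2 with 3.66, Egr2 with 1.45, Egr3 with 1.02 and Nr4a3 with 0.239. Each gene was above the next in 6 of 6 libraries, except that Ier5 was above Nr4a1 in 4. Over both groups, 99.2% of tested genes had a lower mean RPKM than Ier2 and 94.1% a lower one than Egr1, but 20.0% a lower one than Egr2 and 3.12% a lower one than Nr4a3.

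As means ± SD over 3 libraries, the level of Ier2 was 229 ± 45.3 RPKM in MODP and 276 ± 52.6 in MOP, and that of Egr1 was 62.8 ± 19.0 and 58.6 ± 30.1. In MODP the neighbours Ier3 and Btg2, Btg2 and Egr1, Ier5 and Nr4a1, and Egr2 and Egr3 had means closer than the larger of their SDs, and in MOP this held for Egr1 and Ier5. The genes called lower in MOP, Egr2 and Egr3, were thus among the scarce ones, and those called higher with the block, Ier2, Ier5 and Btg2, among the abundant ones.

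The pattern that the 10 genes shared most was between replicates. Replicate 3 was the lowest library of both groups for 10 of 10 genes, against 16.2% of all tested genes. The level in replicate 3 was a median of 0.598 of the mean of replicates 1 and 2 in MODP, ranging from 0.243 for Nr4a3 to 0.706 for Ier2, and 0.594 in MOP, from 0.178 for Egr3 to 0.792 for Egr2. The same ratio had a median of 1.00 in MODP and 0.995 in MOP over all tested genes.

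The 10 genes therefore varied more between replicates than most genes did. The median SD of log2 CPM within a group was 0.455 for the 10 genes and 0.130 for all tested genes. When the spread was taken from the log2 ratios of the 3 pairs, the medians were 0.169 and 0.0963. After the group means were removed, the log2 levels of the 10 genes moved together over the 6 libraries: of 45 gene pairs, 39 had a Pearson correlation above 0.8, the median was 0.920, the lowest 0.465 (Egr1 with Nr4a3) and the highest 0.995 (Nr4a1 with Nr4a2). The 6 points share library scaling and the replicate pairing, so these correlations are descriptions.

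The 5 genes outside the set whose level followed the mean of the 10 most closely were Zmynd11, Pnrc1, Fam214a, Stx5a and Oaz2, with Pearson correlations of 0.9926, 0.991, 0.9902, 0.9899 and 0.9828 over the 6 libraries, out of 9033 candidate genes. Pnrc1, known as a nuclear receptor coactivator, had the widest range of the 5. It was at 95.9, 109 and 64.7 CPM in MODP replicates 1, 2 and 3 and at 108, 106 and 69.2 CPM in MOP. Zmynd11, a reader of histone marks, moved with the 10 genes but over a narrow range, from 95.5 to 103 CPM. The ranking rests on 6 libraries and is a description.

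Heat shock genes, read because they respond to stress of cells, were mostly not low in replicate 3. Hspa1a, which encodes the inducible HSP70 chaperone, was at 6.66, 7.90 and 46.4 CPM in MODP replicates 1, 2 and 3 and at 9.79, 9.48 and 61.3 CPM in MOP. Its near copy Hspa1b was at 9.13, 8.65 and 88.5 CPM in MODP and 12.1, 13.1 and 107 CPM in MOP. Both genes were several times higher in replicate 3 of each group, although reads of the 2 copies may be assigned to either, since 70.1% of the 31-base words of Hspa1a and 68.1% of those of Hspa1b occur in other genes.

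Over the 13 tested heat shock genes, the median ratio of replicate 3 to the other replicates was 1.18 in MODP and 1.11 in MOP. Of the 13, 3 were lowest in replicate 3 of both groups, where 16.2% of all tested genes were. Replicate 3 also had the lowest summed erythroid markers of each group, at 95.7 CPM in MODP and 277 in MOP. The summed dendritic cell markers were likewise lowest there, at 27.2 CPM in MODP and 39.6 in MOP. What part heat shock genes or cells with these markers had in the low replicate 3 was not tested.

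**Figure D3:**
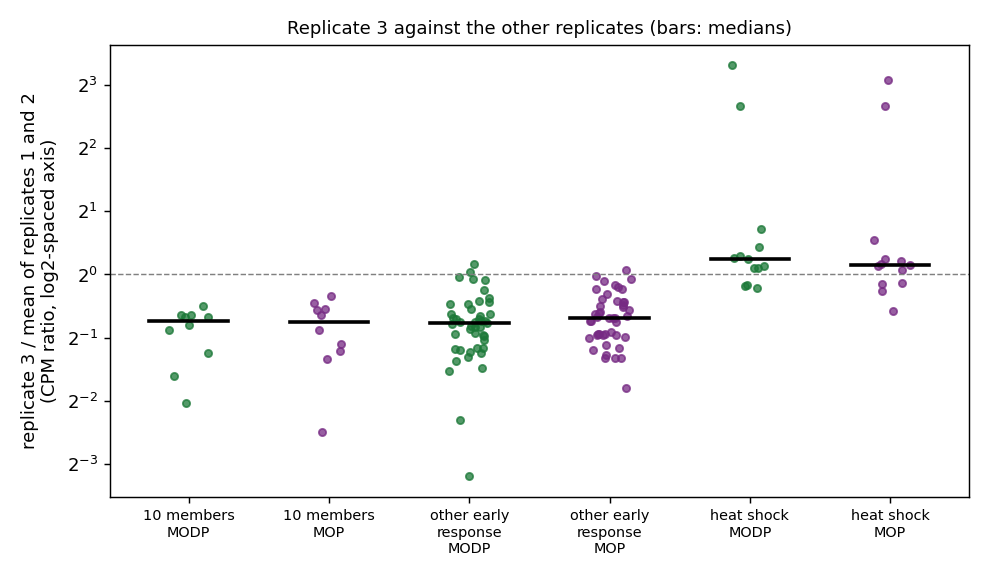
Ratio of the CPM in replicate 3 to the mean CPM of replicates 1 and 2 (vertical axis, log-spaced), 1 point a gene, for the 10 genes, 45 other early response genes and 13 heat shock genes in MODP (green) and MOP (purple), with medians as bars. The 10 genes all lie below 1 in both groups, with medians of 0.598 and 0.594, while 2 heat shock genes, Hspa1a and Hspa1b, lie far above it.

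Other genes of the early response showed the same low replicate 3, and 21 of 45 were called higher in MOP with the replicate block, where 21.2% of all tested genes were. A list of 45 such genes, AP-1 genes among them, was lowest in replicate 3 of both groups for 41, where 16.2% of all tested genes were. The median ratio of replicate 3 to the other replicates was 0.588 in MODP and 0.623 in MOP. With group as the sole factor, edgeR called 2 of the 45 higher in MOP and 4 lower, both below the shares of all tested genes (16.3% and 14.9%). With the block 6 were called lower, where 19.8% of all tested genes were, and the list's median log2 fold change was 0.34, against 0.07 for the 10 genes and -0.01 over all tested genes.

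Klf4, a Krüppel-like factor of monocyte differentiation, rose in MOP with a log2 fold change of 1.63 ± 0.26 (SE, edgeR adjusted p = 0.0099), from 99.4 to 174 CPM in MODP to 356 to 531 in MOP. Fosl2, an AP-1 subunit, rose by 1.11 ± 0.22 (adjusted p = 0.016). Both were separate between the groups. The most abundant genes of the list, Fos and Jun, which form the AP-1 dimer, had log2 fold changes of 0.58 ± 0.27 (adjusted p = 0.18, and 8.9e-05 with the block) and 0.69 ± 0.23 (adjusted p = 0.074, and 0.0015 with the block).

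Myc, the growth-promoting transcription factor, fell by 1.11 ± 0.08 on the log2 scale (SE, edgeR adjusted p = 0.00021), from 212 to 259 CPM in MODP to 109 to 115 in MOP. Zfp36l2, which promotes decay of AU-rich transcripts, fell by 0.35 ± 0.06 (adjusted p = 0.0027). The remaining genes called lower were the phosphatase genes Dusp2 (log2 fold change -0.95 ± 0.22, adjusted p = 0.028) and Dusp4 (-1.29 ± 0.43, adjusted p = 0.049), which act on MAP kinases. Dusp4 was scarce, at 5 to 27 counts a library. Myc and Zfp36l2 varied little between replicates, unlike Egr2 and Egr3, which were lower in MOP and also low in replicate 3. Dusp2 and Dusp4, like Egr2 and Egr3, were lowest in replicate 3 of both groups.

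**Figure D4:**
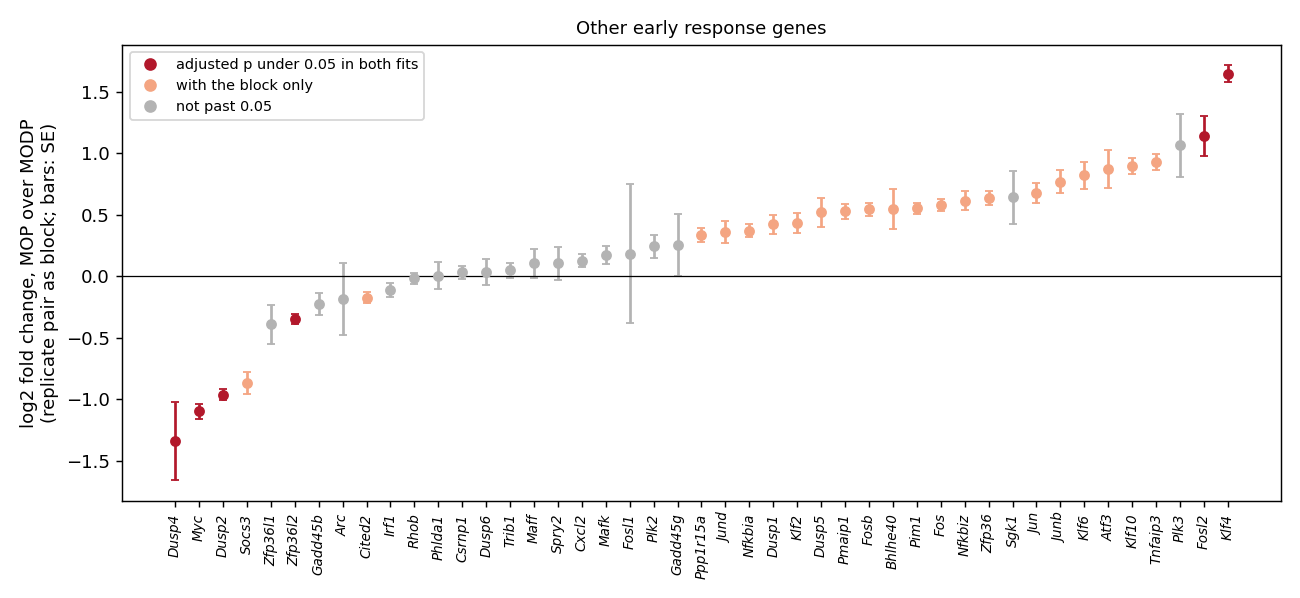
Log2 fold change of MOP over MODP with its SE (vertical axis) for the 45 other early response genes, in rank order, from edgeR with the replicate pair as a block. Dark red marks genes called in both fits, orange those called with the block only, and grey the rest; 21 are called higher and 6 lower with the block, Klf4 being the highest.

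Of 8 tested relatives and partners of the 10 genes, 1 was called higher and 1 lower in MOP, with or without the block, where 16.3% of all tested genes were called higher and 14.9% lower without it, and 21.2% and 19.8% with it. Egr4, the scarcest Egr gene, was at 1.07, 1.41 and 0.914 CPM in MODP and 0.0736, 0.576 and 0.228 CPM in MOP, from 1 to 15 counts a library. All MOP libraries were below all MODP libraries, and the log2 ratio was -1.85 ± 0.57 (SE, edgeR adjusted p = 0.039, and 0.015 with the block). Nab1, a corepressor that binds EGR proteins, rose by 0.34 ± 0.06 (adjusted p = 0.0034), from 71.4 to 75.1 CPM in MODP to 88.4 to 95.1 in MOP.

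Btg1, a relative of Btg2, was at 154, 241 and 100 CPM in MODP and 260, 288 and 196 CPM in MOP, again lowest in replicate 3. On the log2 scale MOP differed by 0.59 ± 0.37 (SE, edgeR adjusted p = 0.31, and 0.066 with the block). Btg3 was scarce, with a log2 fold change of -0.84 ± 0.54 (adjusted p = 0.27). Tob2, of the same family, was at 114 to 122 CPM in all 6 libraries (log2 fold change 0.02 ± 0.05, adjusted p = 0.84).

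Among 25 genes that act upstream of the early response (kinases of the MAP kinase cascade, SRF and its partners, CREB and MEF2 factors and their regulators), edgeR called 10 higher and 2 lower in MOP, and 11 and 2 with the block. Over all tested genes the shares were 16.3% and 14.9%, and 21.2% and 19.8% with the block. Rps6ka4, the gene of the histone kinase MSK2, rose by 0.85 ± 0.08 on the log2 scale (SE, adjusted p = 0.00035). Mrtfa, a coactivator of SRF, rose by 0.61 ± 0.07 (adjusted p = 0.00094), and Map2k1, the gene of the kinase MEK1, by 0.47 ± 0.05 (adjusted p = 0.00063). Elk3, an ETS partner of SRF, fell by 0.48 ± 0.07 (adjusted p = 0.0018).

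The other gene called lower was Mef2c, with a log2 fold change of -0.35 ± 0.07 (SE, edgeR adjusted p = 0.0093). Rps6ka1, the gene of the kinase RSK1 and the most abundant of that list by mean level, rose by 0.24 ± 0.06 (adjusted p = 0.021). Srf itself was at 128 ± 1.72 CPM (SD, n = 3) in MODP and 129 ± 4.36 in MOP, named after its values were seen. These regulators did not share the replicate pattern of the 10 genes, since 3 of 25 were lowest in replicate 3 of both groups, where 16.2% of all tested genes were. Their median SD of log2 CPM within a group was 0.0871.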

How the data were processed

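The authors deposited raw counts of reads per Ensembl gene, with no normalization. TopHat 1.4 and HTSeq are named in the submitters' processing notes. Which build, annotation and strand setting were used in counting is not given in the sources at hand; antisense reads cannot be told apart. Symbols came from GENCODE M21, which matched 20840 of 22271 identifiers. Its merged exon lengths gave the RPKM values. No exon of another annotated gene overlapped the 10 genes, and at most 0.588% of their 31-base words occur in other genes.

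Genes were kept with filterByExpr, leaving 12850. The comparison of all 6 libraries was edgeR 4.0.16 (quasi-likelihood, robust, TMM scaling, group as the sole factor) with p-values adjusted by Benjamini-Hochberg over every tested gene and a threshold of 0.05, in R 4.3.3. Adjusted p-values are from edgeR unless DESeq2 (1.42.0) is named. The SE of an edgeR log2 fold change was taken from the test, as its absolute value divided by the square root of the F statistic. The scripts were tested on simulated data.

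In the titles the libraries of each group are WT1, WT2 and WT1, and the table's columns number them 1, 2 and 3. Deviations from the group means correlated at 0.589, 0.607 and 0.507 between libraries with the same column number and at -0.449 to 0.0503 between the others (9351 genes above a mean log2 CPM of 3). The column numbers were therefore used as a block, and paired values stand beside a result where they change a call. Libraries of the same group differed beyond sampling noise, with chi-square values of 7.35 to 34.7 per degree of freedom, and all were counted as replicates.

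The 10 genes and the lists were chosen with earlier results of these data known. All 10 are named. From the early response, family and upstream lists up to 4 genes with the smallest adjusted p and up to 2 with the highest mean CPM are named, and from genes outside the 10 with a mean of at least 10 CPM the 5 most correlated with the mean of their standardised log2 CPM. A gene that this rule takes is not reported here. Dusp2, Dusp4, Mef2c, Srf, the heat shock genes and the family ratios were named after their values were seen. Alternatives were DESeq2, median-ratio (RLE) and upper-quartile scaling, other filters on low counts, blocks by column or title number, leaving out libraries or pairs, and transcript length for RPKM.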

Additional observations from a re-analysis of the deposited data

How the results depend on the processing

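With the replicate block (the pairing by column number) 3 of the 10 genes were higher, 2 were lower, and 27 of the 45 other early response genes passed, against 0, 1 and 6 without it. Blocking by the title number called 0 higher and 1 lower. Leaving out 1 library at a time without the block gave 0 higher in each case, 0 to 1 lower and 3 to 8 other early response genes, with 3 when MODP replicate 1 or MOP replicate 1 was left out. Leaving out both replicate 2 libraries gave 0 lower. In the paired fit, alternatives added after seeing the data, without replicate 1, 2 or 3 in turn, gave 1 to 5 higher and 2 to 3 lower: 1 higher (Ier5) without replicate 1 or 3, and 5 without replicate 2, when Nr4a1 (log2 fold change 0.15, edgeR adjusted p = 0.038) and Ier3 also passed. The third lower gene was Egr1 without replicate 1 (log2 fold change -0.37, adjusted p = 0.012). Paired fits without a pair hold few libraries and lean on variance shared across genes, so their p-values are rough.

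Without the block, signs turned in 5 genes that this fit did not call, Btg2 among them, which the paired fit called higher: leaving out 1 library gave log2 fold changes of -0.57 to 0.21 for Egr1, -0.26 to 0.38 for Nr4a1, -0.12 to 0.26 for Nr4a2, -1.48 to 0.15 for Nr4a3 and -0.0137 to 0.47 for Btg2. Without both replicate 2 libraries Egr1 was at 0.0136, and with upper-quartile scaling Nr4a1 was at -0.0053. Upper-quartile scaling moved the median log2 fold change of all genes from -0.01 to -0.06 and the calls from 2095 higher and 1913 lower to 1692 and 2452. Directions of Egr2, Egr3, Ier2, Ier3 and Ier5 held under all alternatives run. The RPKM of Egr2 in MOP was 1.14 by longest transcript, against 0.997, because the same counts were divided by a shorter length. The cause of the other shifts was not tested. Counts of 6 to 44 (Nr4a3) and 8 to 101 (Egr3) limit those genes' precision.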
